A study of Mus musculus with 6 samples.

Results

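Keratins are the intermediate filament proteins of epithelial cells. The data concern 7 keratin genes in mouse lung buds of stage E12.5, 4 of simple epithelia (Krt7, Krt8, Krt18 and Krt19) and 3 of basal cells (Krt5, Krt14 and Krt15). A gene was measured through probe sets that carry exactly 1 gene symbol equal to its name, and where a gene had several, the brightest on average over the 6 arrays was taken. By that rule 6 of the 7 genes had a value, out of 22180 genes in all. Krt5 had none, because its probe set also carries the symbol of Krt6a.

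RNA of whole lung buds was hybridised to 6 arrays. The control group was 3 arrays of genotype Shh cre/+, and the mutant group was 3 arrays of genotype Fzd2Flox/Flox; Shh cre/+, so both groups carry the Cre allele at Shh and differ in the floxed Fzd2 alleles. Shh is expressed in lung epithelium and not in the surrounding mesenchyme, so Cre there aims at epithelial loss of Fzd2, a Frizzled receptor for Wnt ligands, and the study asked which genes depend on that receptor. Neither compartment was measured alone, and the labels call the arrays biological replicates without saying whether lungs were pooled.

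A keratin filament is built from pairs of 1 type I and 1 type II protein. Krt8 (type II) and Krt18 (type I) form the usual pair of simple, single-layered epithelia, to which Krt7 (type II) and Krt19 (type I) are added in ducts and airways. Krt5 (type II) and Krt14 (type I), with Krt15 (type I), mark the basal layer of stratified and pseudostratified epithelia, including the basal stem cells of the mature trachea and large airways, which depend on the transcription factor Trp63. Filaments of either kind are anchored to desmosomes between cells and to hemidesmosomes at the basement membrane.

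In the gene table of assembly GRCm38.p6, Krt7, Krt8, Krt18 and Krt5 lie on chromosome 15 and Krt19, Krt14 and Krt15 on chromosome 11. Krt8 and Krt18 are direct neighbours, with 0 protein-coding genes between them, although they encode partners of different types. Krt19 and Krt15 are also direct neighbours, and 97 protein-coding genes separate Krt19 from Fzd2, which is on the same chromosome. Alleles near Fzd2 travel with the floxed allele, so for Krt19, Krt14 and Krt15 a linked difference and the loss of Fzd2 cannot be told apart. The 250 bases before the RefSeq start of 3 simple keratin genes are shown because these were the brightest keratins, all with lower mutant means. Krt19, also with a lower mutant mean, had no window among the promoter sequences used. Capitals mark matches, on either strand, to TATAA (TATA box), GGGCGG (GC box), TGANTCA (AP-1) or CTTTGA (a core of TCF/LEF sites, the factors that act downstream of Wnt); build GRCm38.p6, written in the direction of the gene.
Krt8 chr15:102004343-102004592 (- strand): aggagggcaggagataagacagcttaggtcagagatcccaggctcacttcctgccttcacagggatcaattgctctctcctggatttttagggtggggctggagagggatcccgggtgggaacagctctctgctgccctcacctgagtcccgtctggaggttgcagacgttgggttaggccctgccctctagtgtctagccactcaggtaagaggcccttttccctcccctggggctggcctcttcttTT
Krt18 chr15:102027966-102028215 (+ strand): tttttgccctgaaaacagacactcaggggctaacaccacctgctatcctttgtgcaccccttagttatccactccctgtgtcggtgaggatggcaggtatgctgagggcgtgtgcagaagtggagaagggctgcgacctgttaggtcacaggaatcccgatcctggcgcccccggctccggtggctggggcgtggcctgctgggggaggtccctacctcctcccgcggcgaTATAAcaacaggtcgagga
Krt7 chr15:101412153-101412402 (+ strand): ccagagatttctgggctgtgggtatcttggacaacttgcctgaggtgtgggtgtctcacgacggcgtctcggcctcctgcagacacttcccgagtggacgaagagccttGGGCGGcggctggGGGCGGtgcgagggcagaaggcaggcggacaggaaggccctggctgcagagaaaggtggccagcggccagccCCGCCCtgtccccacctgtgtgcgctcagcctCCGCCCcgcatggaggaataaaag

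The 3 upstream sequences differ in these letters. Krt18 holds a TATAA that begins 19 bases before the start, and Krt8 holds one that begins 1 base before the start and runs past the printed bases, overlapping a match on the other strand. Krt7 holds 4 GC boxes, which begin 141, 128, 56 and 24 bases before the start, and no TATAA. Neither CTTTGA nor TGANTCA was found in any of them in windows that also include the 50 bases after the start. Of 32851 RefSeq windows of that length, 24.9% held TATAA, 35.7% GGGCGG, 16.0% CTTTGA and 7.81% TGANTCA.

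In mutant lungs all 4 simple keratins had lower means and both measured basal keratins had slightly higher means, and none of the 6 passed the test. The largest difference was that of Krt8, at 81.4% of the control level. Limma, fitted on all 22180 genes with Benjamini-Hochberg adjustment, called 14 genes (0.0631%) at an adjusted p under 0.05 and 0 of the 6 keratins. At an unadjusted p under 0.05 it counted 5.15% of all genes as lower and 7.34% as higher in mutants, and 1 keratin, Krt8, as lower. Lower means as such were found in 45.2% of all genes, but the share depended on brightness. Higher means were found in only 34.7% of genes above the 70th percentile of mean expression, where Krt8 and Krt18 lie. They were found in 51.0% between the 50th and the 70th (Krt7 and Krt19) and in 66.5% up to the 30th (Krt14 and Krt15). Values below are deposited log2 expression, and a log2 difference is mutant minus control with limma's standard error (SE).

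Krt8, the type II partner that simple epithelia share, had log2 values of 10.72, 10.45 and 10.42 in the controls and of 10.28, 10.15 and 10.28 in the mutants, here and below in the order of replicates 1 to 3. Every mutant array was below every control array, and control replicate 1 stood above the other controls. The log2 difference was -0.30 (SE 0.09, 95% interval -0.50 to -0.09, n = 3 and 3), with an unadjusted p of 0.0103 and an adjusted p of 0.288 by limma. The exact permutation p, two-sided, was 0.1, the smallest that 3 arrays against 3 can give.

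Krt18, its type I partner, had log2 values of 9.69, 9.80 and 9.66 in the controls and of 9.64, 9.36 and 9.63 in the mutants. The groups did not overlap, but mutant replicates 1 and 3 lay just under the lowest control, and mutant replicate 2 lay far below. The log2 difference was -0.17 (SE 0.09, 95% interval -0.37 to 0.03, limma adjusted p = 0.455), 88.8% of the control level. Without mutant replicate 2 it was -0.08. Over all genes the groups did not overlap in 19.4%, with mutants lower in 8.83% and higher in 10.6%, and Krt8 and Krt18 were the 2 of 6 keratins with that pattern.

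Krt7, a type II keratin of ducts and airways, had log2 values of 9.09, 9.00 and 9.02 in the controls and of 8.86, 8.80 and 9.12 in the mutants. The controls lay close together, while mutant replicate 3 was the highest array of all and the other mutants were the lowest. The log2 difference was -0.11 (SE 0.09, 95% interval -0.31 to 0.09, limma adjusted p = 0.624). It was -0.21 without mutant replicate 3 and -0.05 without mutant replicate 2.

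Krt19, the type I keratin that nearly lacks a tail domain, had log2 values of 8.40, 7.88 and 7.84 in the controls and of 8.07, 7.68 and 8.10 in the mutants. Control replicate 1 was the highest array and mutant replicate 2 the lowest, and mutant replicates 1 and 3 lay above the other controls. The log2 difference was -0.09 (SE 0.17, 95% interval -0.48 to 0.31, limma adjusted p = 0.855), with the widest interval of the 6 keratins. Its direction depended on those 2 arrays: the log2 difference was 0.09 without control replicate 1, 0.05 without mutant replicate 2, and 0.23 without both (unadjusted p = 0.00901, adjusted p = 0.295 by limma). Leaving out the highest control and the lowest mutant of this gene raises its difference by construction. The p without both arrays is therefore no test of a rise in Krt19.

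**Figure D1:**
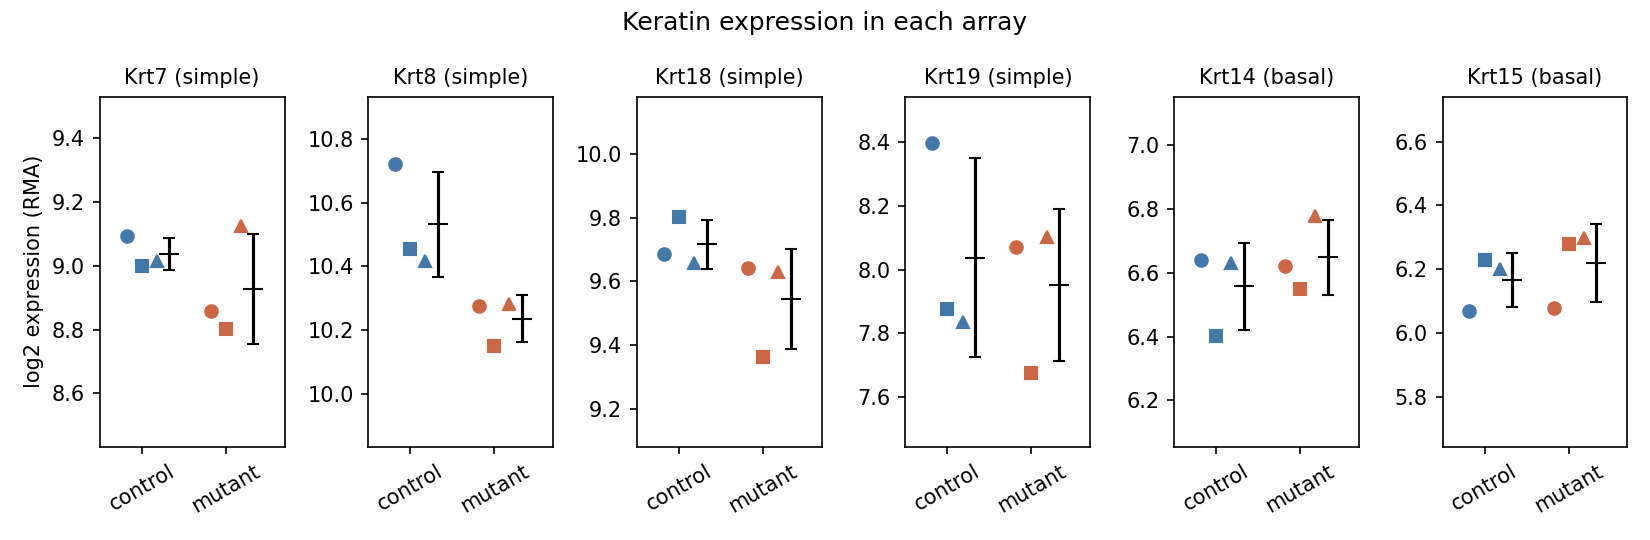
Log2 expression of the 6 measured keratins in each array, by group (blue, control; orange, mutant; circle, square and triangle, replicates 1, 2 and 3), with the group mean and SD (n = 3) in black; all panels span the same log2 range. The groups separate in Krt8 and narrowly in Krt18, and overlap in Krt7, Krt19, Krt14 and Krt15.

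Krt14, the type I partner of Krt5 in basal cells, had log2 values of 6.64, 6.40 and 6.63 in the controls and of 6.62, 6.55 and 6.78 in the mutants. Its log2 difference was 0.09 (SE 0.09, 95% interval -0.11 to 0.29, limma adjusted p = 0.679), and 0.013 to 0.14 with 1 array left out. Krt15, a type I keratin of basal and progenitor cells, had log2 values of 6.07, 6.23 and 6.20 in the controls and of 6.08, 6.28 and 6.30 in the mutants. The groups overlapped in both genes: 2 mutant arrays lay within the control range in Krt14, and 1 did in Krt15. The log2 difference of Krt15 was 0.05 (SE 0.08, 95% interval -0.12 to 0.23, limma adjusted p = 0.797), and 0.0039 to 0.12 with 1 array left out.

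The basal keratins were dim. The genes of olfactory receptors, most of which act in nasal sensory neurons, were used as a yardstick of probe sets with little target, a choice made after the values were seen. Means of 1088 such genes ran from 4.05 to 6.98 between their 5th and 95th percentile. Krt14 (mean 6.60) and Krt15 (6.19) lay inside that range, and Krt19 (7.99), Krt7 (8.98), Krt18 (9.63) and Krt8 (10.38) lay above it. Probe sets differ in brightness for the same amount of RNA, so this order is one of probe sets, not of transcripts, and a small difference in a dim probe set is compressed.

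The median log2 difference was -0.14 over the 4 simple keratins and 0.07 over the 2 measured basal keratins, beside 0.01 over all genes. The mean of the simple keratins, relative to its control mean, was 0.14, -0.05 and -0.10 in the controls and -0.12, -0.33 and -0.05 in the mutants. Mutant replicate 3 therefore lay within the control range. The same mean over Krt14 and Krt15 ran from -0.05 to 0.05 in controls and from -0.01 to 0.18 in mutants, and the groups overlapped. Bright genes as a whole had slightly lower and dim genes slightly higher mutant values, with a median of -0.03 over the genes above the 70th percentile of mean expression and 0.03 over those up to the 30th; all 4 simple keratins were brighter than both basal ones, and the part of this trend in their values was not tested.

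**Figure D2:**
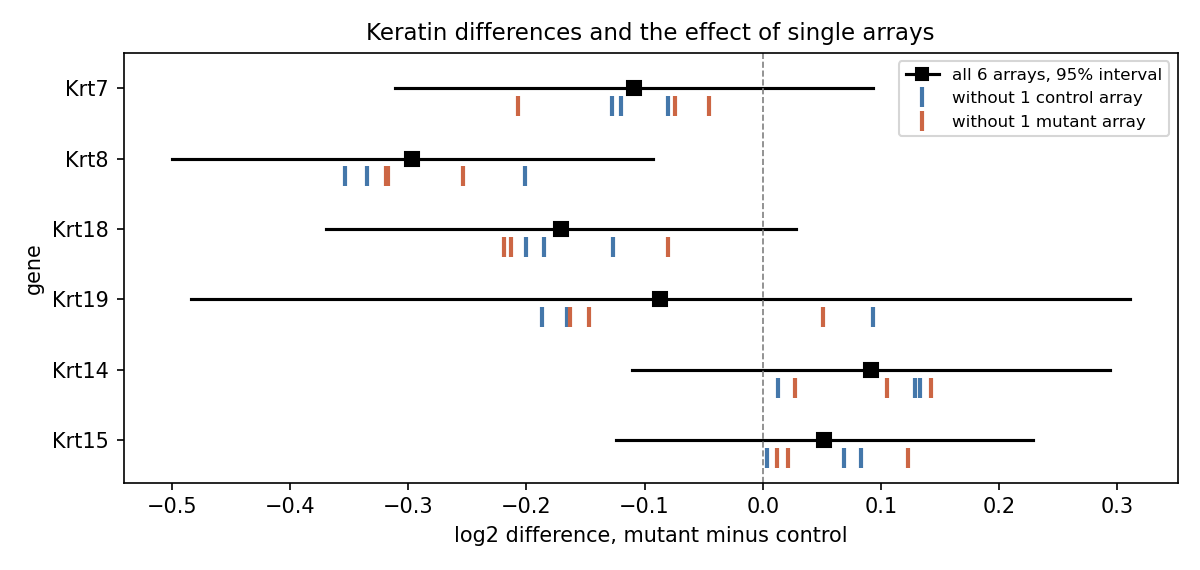
Log2 difference, mutant minus control, of each keratin (black square) with its 95% interval from limma, and below it the same value without 1 control array (blue) or without 1 mutant array (orange). Krt19 runs from -0.19 to 0.09 and is the only keratin whose sign changes. Krt8 runs from -0.35 to -0.20. Its groups do not overlap, so leaving out 1 array cannot change its sign.

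Among themselves the simple keratins did not separate. In 6 pairwise comparisons of their log2 differences, the widest gap was between Krt8 and Krt19, where Krt8 differed by a further -0.21 (exact permutation p = 0.2, Benjamini-Hochberg adjusted p = 0.6 over 6 pairs). Krt8 was lower than its partner Krt18 by a further -0.13 (SD 0.20 in controls and 0.08 in mutants, n = 3 and 3; exact permutation p = 0.5, adjusted 0.75). These tests are two-sided and cannot go below 0.1, so a real gap of this size would not have been called.

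Genes shared by epithelia were lower in the same arrays. Of 24 such genes without keratins, 23 were measured, 22 had lower means, and the median log2 difference was -0.27. At an unadjusted p under 0.05, 18 were lower, against 5.15% of all genes, and 1 fell at an adjusted p under 0.05 by limma, the splicing regulator Esrp1 (-0.48, SE 0.05, adjusted p = 0.0334). Esrp2 (-0.42, adjusted p = 0.0556), the serine protease gene Prss8 (-0.45, adjusted p = 0.0778) and Prom1 (-0.33, adjusted p = 0.0845) came next. Leaving out any 1 array ended the Esrp1 call (adjusted p from 0.0851 to 0.188, log2 difference -0.51 to -0.45), as did the replicate number as a block (0.181) and the list mean as a covariate (0.802). In whole lung buds, fewer epithelial cells and less of an RNA per epithelial cell cannot be told apart.

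Relative to the mean of those 23 genes in the same array, Krt8 was level with the epithelium on average and the other keratins were not lower. The mean of the list stood -0.21, -0.34 and -0.24 from its control mean in the mutants, where Krt8 stood at -0.26, -0.38 and -0.25. The remaining log2 difference of Krt8 was -0.03 (SD 0.16 and 0.02, n = 3 and 3; exact permutation p = 1). It rested on control replicate 1: Krt8 stood at 0.19, -0.11 and -0.08 in the controls and at -0.04, -0.04 and -0.01 in the mutants. The remaining difference of Krt18 was 0.09 (exact p = 0.2), of Krt7 0.16 (exact p = 0.2) and of Krt19 0.18 (exact p = 0.4). The dim Krt14 (0.36) and Krt15 (0.32) had no overlap on this scale (exact p = 0.1 each, adjusted p = 0.3 over 6 genes). Their own values overlapped between the groups, and the subtracted list mean was lower in every mutant array. A gene with no difference would therefore also stand higher in mutants on this scale. The share of all genes that separate on it was not counted.

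Control replicate 1 and mutant replicate 2 stood apart in genes of other tissues, and some simple keratins had their highest or lowest values in these arrays. Genes known from adult small intestine, 18 of 18 measured, summed to 14320.3 linear units in control replicate 1 and to 1752 and 1877 in the other controls, against 1865 to 2114 in the mutants. Krt20, a type I keratin of the intestinal lining that was named after its values were seen, was at 8.76 in control replicate 1 and between 6.10 and 6.24 on the other 5 arrays. Krt8 and Krt19 had their highest values in that array. Krt18 and Krt7 did not: Krt18 was highest in control replicate 2 (9.80) and Krt7 in mutant replicate 3 (9.12).

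Genes of adipose tissue, 10 of 11 measured, summed to 15244.1 linear units in mutant replicate 2 and to between 1228 and 1763 on the other arrays. That array had the lowest values of Krt7, Krt8, Krt18 and Krt19, and also the lowest pan-epithelial mean. Without control replicate 1 the log2 difference of Krt8 was -0.20 (limma unadjusted p = 0.0172). Without both arrays it was -0.16 (unadjusted p = 0.0390, adjusted p = 0.383 by limma). These arrays hold the highest control and the lowest mutant of Krt8, so leaving them out shrinks its difference and its spread by construction. The p of these reduced fits is therefore no test of Krt8. The median of the simple keratins was -0.06 without both arrays. The part of the intestinal and adipose signals in the keratin values was not tested.

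**Figure D3:**
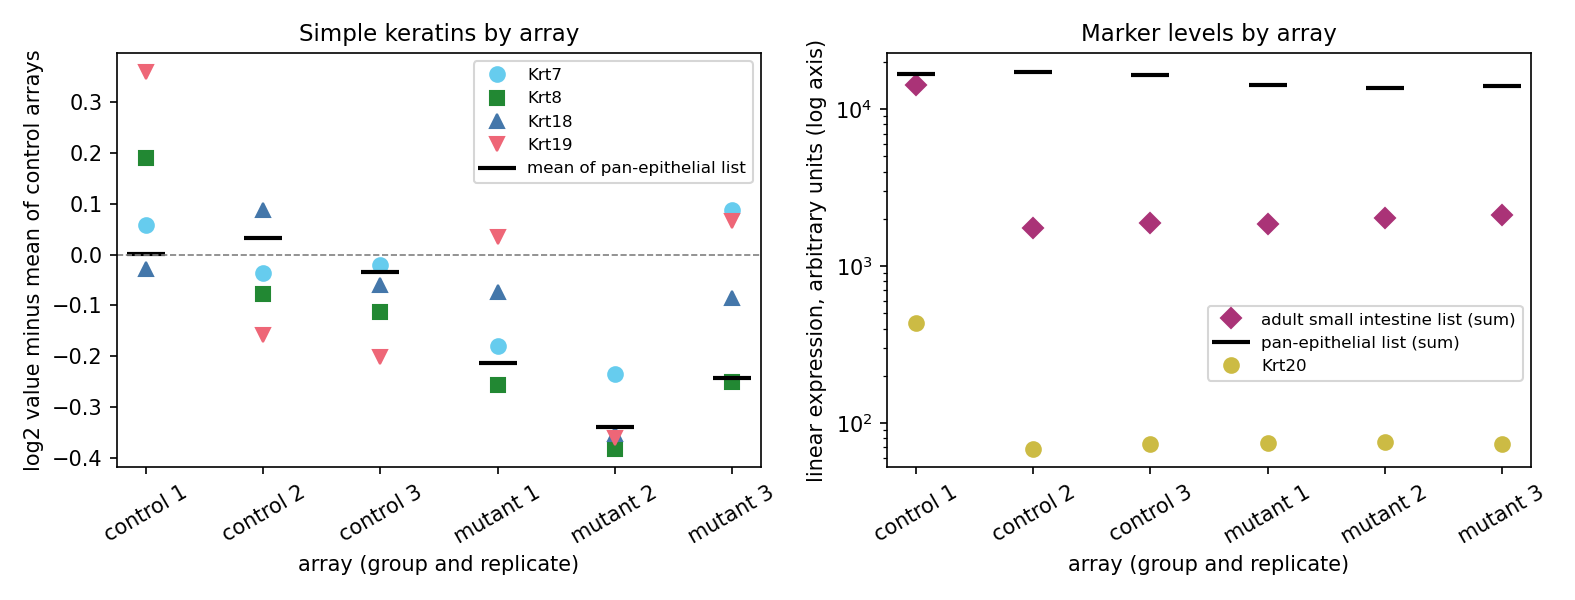
Left, log2 values of the 4 simple keratins and the mean of the pan-epithelial list in each array, relative to the mean of the controls. Right, the linear sums of the intestinal and pan-epithelial lists and the linear level of Krt20 on a log axis; control replicate 1 is the array with high intestinal sum (14320.3) and high Krt20, and mutant replicate 2 holds the lowest simple keratins.

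The labels themselves were weakly checked. Fzd2 had a log2 difference of -0.29 (SE 0.15, limma adjusted p = 0.475), and mutant replicate 1 (9.67) lay within the control range of 9.57 to 9.82. Mutant replicate 2 had the lowest value (9.07), and without it the log2 difference was -0.10. Lung epithelium was present in every array by its markers, with Nkx2-1, the defining transcription factor of lung epithelium, at a mean of 10.28. The lung epithelial list had 9 of 16 genes lower and 1 higher at an unadjusted p under 0.05, against 5.15% and 7.34% of all genes. The list had a median log2 difference of -0.26. Its smallest p were those of Irx2 (-0.42, limma adjusted p = 0.0521), Nkx2-1 (-0.41), Foxa1 (-0.47) and Irx3 (-0.31).

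Genes of the basal cell programme, beside which Krt14 and Krt15 are usually read, were called neither way. Of 12 measured, 0 passed limma's adjusted threshold, 0 were lower and 2 higher at an unadjusted p under 0.05 (against 5.15% and 7.34% of all genes), and the median was 0.08. Without mutant replicate 2, 0 were higher at that threshold. Trp63, the master regulator of basal cells, singled out with its values known, differed by 0.04 on the log2 scale (SE 0.06). The smallest p were those of the membrane glycoprotein gene Pdpn (0.30, SE 0.11), which mesothelium and lymphatic vessels also express, Sfn (0.15), Trim29 (0.10) and the water channel gene Aqp3 (0.15). Among 12 genes of squamous differentiation, 5 were higher and 0 lower at an unadjusted p under 0.05, with 0 called and a median of 0.09 (7.34% of all genes were higher at that threshold). The 5 became 2 without mutant replicate 2 and 3 without control replicate 1. They were led by the loricrin gene Lor (0.34, SE 0.07, limma adjusted p = 0.166), Tgm1 (0.17), Cnfn (0.21) and Sbsn (0.30), whose means lay between 7.41 and 7.85.

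Regulators reported to act on keratin genes were split. Of 9, 4 were lower and 1 higher at an unadjusted p under 0.05, with 0 called over all genes and a median of -0.20. Over all genes, 5.15% were lower and 7.34% higher at that threshold. Of the 4 lower genes, Grhl2 and Elf3 are also in the pan-epithelial list and Sox2 is in the lung epithelial list. These counts therefore partly repeat those of the epithelial lists. Grhl2, an epithelial regulator (-0.40, SE 0.07, limma adjusted p = 0.140), Sox2, which marks the proximal airway and its basal cells (-0.66, SE 0.14, adjusted p = 0.179), and Klf5 (-0.34, SE 0.13) had lower values in all mutant arrays than in any control. With Elf3 they were the 4 of 9 that were lower without overlap, against 8.83% of all genes. Tfap2a was higher without overlap (0.19, SE 0.07), as were 10.6% of all genes. It was dim, with a mean of 5.60 inside the range of the olfactory receptor genes. Without mutant replicate 2, or without control replicate 1, 2 of the 9 were lower and 0 higher at that threshold, and the median was -0.10 without mutant replicate 2.

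The structures that hold keratin filaments did not move one way. Of 15 desmosome and plakin genes, 14 were measured and 0 called. At an unadjusted p under 0.05, 2 were lower and 2 higher, against 5.15% and 7.34% of all genes. Without overlap between the groups, 4 were lower and 2 higher, against 8.83% and 10.6% of all genes. Dsp, whose product links keratin filaments to the desmosome, had log2 values of 9.07, 9.24 and 9.04 in the controls and 8.99, 8.63 and 8.89 in the mutants, with no overlap (-0.28, SE 0.10, limma adjusted p = 0.338). The desmosomal cadherin gene Dsg2 was also lower in every mutant array (-0.28, SE 0.07, adjusted p = 0.237), while Dsc2 (0.23) and Perp (0.52, SE 0.20), a p53 target as well as a desmosomal protein, were higher in mean. These 2 were dimmer (Dsc2 mean 7.37, Perp 6.87) than Dsp (8.98) and Dsg2 (7.83). Perp lay inside the range of the olfactory receptor genes. Of 9 hemidesmosome genes, 8 were measured and 0 called. The laminin genes Lamb3 (-0.26, SE 0.05) and Lama3 (-0.19) were lower, and Col17a1 (0.18) and Cd151 (0.19) higher, at an unadjusted p under 0.05. The shares of all genes at that threshold were again 5.15% lower and 7.34% higher.

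Cells other than lung epithelium can hold simple keratins, and mesothelium is one such type. Of 11 mesothelial genes, 10 had higher means and 3 were higher at an unadjusted p under 0.05, with 0 called and a median of 0.14. Over all genes, 54.8% had higher means and 7.34% were higher at that threshold. Gpm6a (0.37, SE 0.06), Upk3b (0.19), Tbx18 (0.39) and Bnc1 (0.13) had the smallest p, and the list summed to between 6814 and 7290.4 linear units in controls and between 7494 and 8037 in mutants. Without control replicate 1 and mutant replicate 2 together, 5 were higher at that threshold. The part of mesothelium in the keratin values was not tested. Of 14 lung mesenchyme genes, 7 had lower and 7 had higher means, with a median of 0.09. At an unadjusted p under 0.05, 0 were lower and 6 higher, against 5.15% and 7.34% of all genes, and 3 were higher without both outlying arrays. The proteoglycan gene Dcn rose (0.54, adjusted p = 0.0238 by limma), a call that ended without any 1 array (adjusted p from 0.0851 to 0.143) and with the replicate block (0.162). Lum (0.61), Prrx1 (0.50) and Pdgfra (0.19) followed by p.

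The rest of the keratin family served as a comparison. Of 47 other keratins measured under the same rule, 36 (76.6%) had higher means in mutants, and 0 were called by limma. Higher means were found in 54.8% of all genes, but in 66.5% of those up to the 30th percentile of brightness and 71.3% of those between the 30th and the 50th, where most of these keratins lie. At an unadjusted p under 0.05, 6 were higher and 0 lower, against 7.34% and 5.15% of all genes. The 4 with the smallest p were Krt36, a type I hair and nail keratin (0.46, SE 0.07, adjusted p = 0.108), Krt81, a type II hair keratin (0.28, SE 0.06, adjusted p = 0.160), Krt4, a type II keratin of the oesophageal lining (0.24, SE 0.06, adjusted p = 0.230), and Krt222 (0.13, SE 0.05, adjusted p = 0.367). Krt36 read 7.12, 7.03 and 7.16 in the controls and 7.64, 7.61 and 7.41 in the mutants.

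Most of these keratins were dim, and 3 of the 47 lay above the 50th percentile of mean expression. The brightest were Krt81 (mean 8.14), Krt10, of differentiating epidermis (7.87), Krt32 (7.74) and Krt42 (7.69). Their median log2 difference was 0.09, against 0.03 over all genes up to the 30th percentile of brightness and 0.06 over those between the 30th and the 50th. Without control replicate 1, 9 were higher and 0 lower at an unadjusted p under 0.05. The 2 measured basal keratins lay among them in brightness, while Krt7, Krt8 and Krt18 were brighter than any of the 47.

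**Figure D4:**
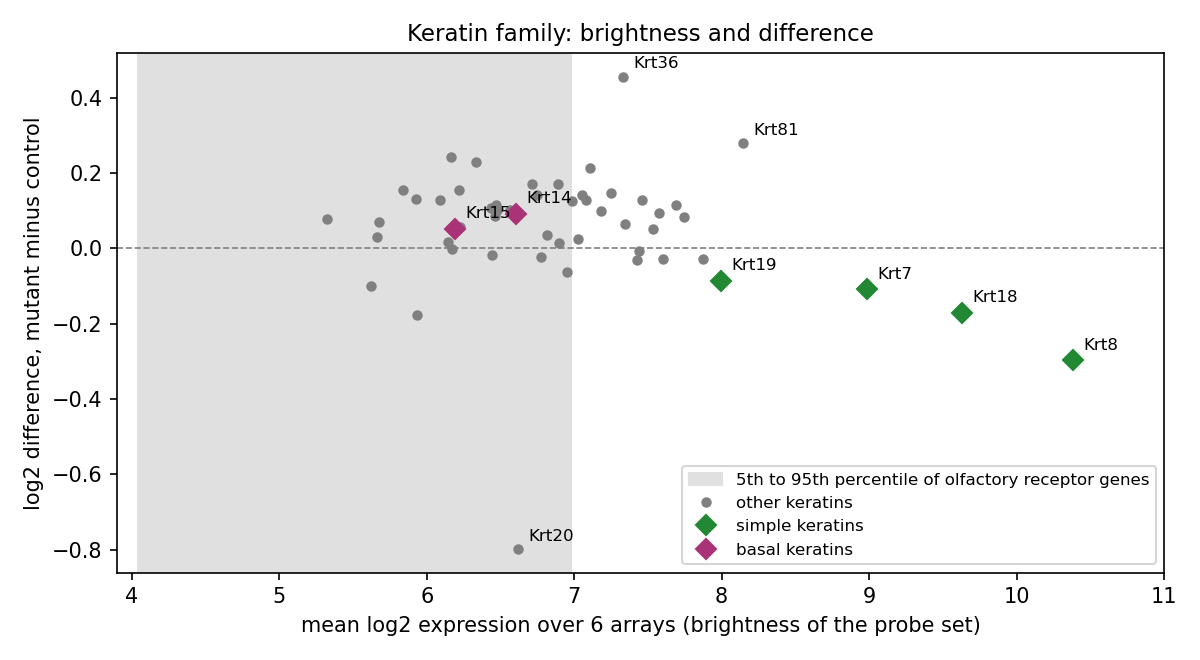
Mean log2 expression over 6 arrays and log2 difference, mutant minus control, of the 6 listed keratins (diamonds) and 47 others (grey); the grey band is the 5th to 95th percentile of olfactory receptor genes. Krt14 and Krt15 lie in the band among the other keratins, the 4 simple keratins lie to its right and below 0, and Krt20 is low because of a high value in control replicate 1.

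Genes with the nearest profile over the 6 arrays were found for each keratin by the root mean square gap between mean-centred log2 values. For Krt8 they were Slc35g1 and the claudin gene Cldn9 (both with a gap of 0.04, beside an SD of Krt8 of 0.20). For Krt18 they were the cell cycle factor gene E2f1 and the centromere gene Cenpk (both 0.03, SD 0.15), and for Krt7 Cep295nl and Tmem238 (both 0.03, SD 0.13). Krt19 had the loosest neighbours, Serpinb1a (0.08) and the amino acid transporter gene Slc7a8 (0.10), beside an SD of 0.25. Krt14 had Sar1b and Nkx6-3 and Krt15 had Rad51d and Vsig10l, with gaps of 0.02 to 0.03. With 6 arrays and 22180 genes, near profiles arise in number, so the names are a description.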

How the data were processed

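Gene expression was measured in 6 whole lung buds or pools of them, from 100 ng of total RNA per array with a biotin label, per the labels' protocols. For 41345 probe sets the authors deposited log2 values. The submitters' processing notes name oligo and RMA; the sources used here give no versions or filters. The log2 scale was read from the values (3.55 to 14.04, array medians 7.29 to 7.32). RMA forces arrays to a common distribution, so differences are relative to the bulk of genes. Of the probe sets, 23521 carried 1 symbol, 1814 several and 16010 none here. The 23521 gave 22180 genes, each by its brightest probe set, with no filter on dim genes; 23328 had an identifier in the RefSeq table of GRCm38.p6, used for names and gene order. Keratins are alike in sequence, and cross-hybridisation was not tested.

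The comparison used limma 3.58.1 (R 4.3.3; lmFit and eBayes with a group term, two-sided tests, Benjamini-Hochberg adjustment over all genes, threshold 0.05), checked on simulated data; exact permutation tests used all splits of 6 arrays. Limma's p-values set a group difference against the spread between arrays, with variances moderated over all genes. Exact permutation p-values rank the difference among the splits. Whether lungs were pooled is unknown, so an array need not be a single animal. The number of arrays limits precision. List sums add linear values. Named are all members, the 4 other keratins with the smallest p and the 4 brightest, up to 4 genes per list by smallest p, and 2 nearest profiles per member. Lists were pan-epithelial, lung epithelium, basal cell, squamous, keratin regulators, desmosome, hemidesmosome, mesothelium, lung mesenchyme, intestine, adipose, liver and other intermediate filaments. The members and lists were chosen with earlier results of these data known. Alternatives were other normalizations, filters, probe set summaries, variance models, array weights, a replicate block, an epithelial covariate and left-out arrays. Comparisons with the epithelial mean and between simple keratins, and list counts without the 2 outlying arrays, were added after seeing the data. Promoter sequences are from RefSeq (GRCm38.p6), where 5 of the 7 genes had a window. Figures used matplotlib 3.10.9 in Python 3.11.15.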

Additional observations from a re-analysis of the deposited data

How the results depend on the processing

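No keratin was called under any alternative (0 of the measured keratins by limma, with 1 or 2 at an unadjusted p under 0.05), and adjusted p ran from 0.195 to 0.991 for Krt8. Krt8 kept its direction, but with the epithelial list mean as a covariate its log2 difference was -0.028 (SE 0.29, adjusted p = 0.991). As the groups of Krt8 did not overlap, left-out arrays could not reverse it. With single arrays left out, the median of the simple keratins ran from -0.21 to -0.06 and that of the basal ones from 0.02 to 0.11; Krt19 ran from -0.19 to 0.094 (control replicate 1 left out), with 0.051 when mutant replicate 2 was left out. With both of these arrays out, Krt19 was at 0.23 and Krt15 at -0.027. With that covariate, the medians were 0.28 (simple) and -0.028 (basal), Krt7 was at 0.12, Krt18 at 0.44 (unadjusted p = 0.0263, adjusted p = 0.804), Krt19 at 0.69, Krt15 at -0.18 and Fzd2 at 0.79 (adjusted p = 0.804); the covariate did not overlap between the groups, so it and the group cannot be told apart. Filters on dim genes removed Krt14 and Krt15 and so gave no basal median.

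The count of 14 called genes was 57 at an adjusted p under 0.10, 8 after a further quantile normalization, 25 and 50 above the 30th and 50th percentile of expression, where fewer genes are tested, and 26 with either the trend or the robust variance model. Limma called 0 with the epithelial covariate (1352 at an unadjusted p under 0.05), 0 without both outlying arrays (2716) and 0 without any single array (1797 to 3084). With the replicate block it called 0 (2511 at an unadjusted p under 0.05) and Krt8 had an adjusted p of 0.355. Deviations of same-numbered arrays from their group means correlated at -0.04, -0.06 and 0.07 for numbers 1 to 3, so the numbers were not taken to pair the arrays. The cause of these changes was not tested.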

Other observations

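Intermediate filament genes outside the keratins had higher means in 9 of 13 measured genes, with a median log2 difference of 0.12 and 0 called by limma. At an unadjusted p under 0.05, 3 were higher and 0 lower, against 7.34% and 5.15% of all genes. Higher means were found in 54.8% of all genes. The astrocyte filament gene Gfap (0.23, SE 0.06, adjusted p = 0.258), the nuclear lamin gene Lmna (0.24, SE 0.08, adjusted p = 0.303), the peripheral neuron filament gene Prph (0.22, SE 0.08) and the neurofilament gene Nefl (0.48, SE 0.22) had the smallest p. Gfap, Prph and Nefl lay between the 30th and the 50th percentile of mean expression, where 71.3% of all genes had higher means. Prph was dim, with a mean of 6.90 inside the range of the olfactory receptor genes. Vim, the filament gene of mesenchyme, was named after its values were seen. It read 13.04, 13.03 and 13.01 in the controls and 13.13, 13.10 and 13.13 in the mutants. It was higher without overlap, as were 10.6% of all genes.

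A second Krt18 probe set, dimmer than the one used, read 6.06, 6.14 and 6.10 in the controls and 6.06, 6.15 and 6.28 in the mutants. Its log2 difference was 0.06 (SE 0.07), and its values lay inside the range of the olfactory receptor genes (5th to 95th percentile 4.05 to 6.98).

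Hepatocytes also hold Krt8 and Krt18. Of 8 liver genes, 7 had higher means in mutants and 0 were called by limma. At an unadjusted p under 0.05, 1 was higher and 0 lower, against 7.34% and 5.15% of all genes. Alb, Fgb and Ahsg were dim, with means of 6.62, 5.33 and 6.29 inside the range of the olfactory receptor genes. Up to the 30th percentile of mean expression, where these lie, 66.5% of all genes had higher means. Afp, of fetal liver and yolk sac, read 7.36, 7.30 and 7.50 in the controls and 7.94, 8.10 and 9.53 in the mutants (log2 difference 1.14, SE 0.37, adjusted p = 0.314), followed by Alb (0.26), Fgb (0.14) and Ahsg (0.11). Of 18 intestinal genes 17 had lower means, and of 10 adipose genes 10 had higher means, with 0 in either list at an unadjusted p under 0.05 by limma and 0 called. Named by smallest p were Tff3 (-0.20), Defa24 (-1.75), Reg3g (-1.48) and Lyz1 (-1.79), and Lep (0.11), Plin4 (0.48), Cd36 (1.18) and Plin1 (1.00). Without control replicate 1, 7 of the 18 intestinal genes had lower means. Without mutant replicate 2, 5 of the 10 adipose genes had higher means, with a median of -0.0095 in place of 0.96.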
